A study of Mus musculus with 11 samples.

Results

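Respiratory chain transcripts encoded by the mitochondrial genome were followed in mesenchymal stem cells (MSCs, stromal cells that can form bone, cartilage and fat cells) from mice. The group was set by a list of 10 messenger RNAs: mt-Nd1, mt-Nd2, mt-Nd4, mt-Nd5 and mt-Nd6 for complex I, mt-Cytb for complex III, mt-Co1, mt-Co2 and mt-Co3 for complex IV, and mt-Atp6 for complex V. Of these, 8 had a row in the count table of 28222 genes, and all 8 passed the filter on low counts, as did 16132 genes in all. The genes mt-Nd4 and mt-Co3 had no row of their own and were not analysed here except through the nuclear copies described further on. The whole mitochondrial genome contributed 19 genes with a row.

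Polyadenylated RNA was sequenced from 11 libraries in 3 batches. Young mice gave all 4 libraries of batch A and 2 of batch B, while old mice gave the other 2 of batch B and all 3 of batch C. Young mice were 3 to 5 months and old mice 18 to 22 months of age, and the culture of every group was kept at 2% oxygen. The labels name no strain, genotype or drug treatment and do not say whether libraries of a group came from separate animals, so that p-values measure the spread between libraries, which may be technical.

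Library totals ranged from 11969336 to 20315934 counts, and the detection limit, set at 3 counts, was equal to 0.156 to 0.253 CPM (the count of a gene scaled to the library total).

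The mitochondrial genome is a small circle that is copied and transcribed inside the organelle by its own polymerase. Both strands are read into long precursors, from which the transfer RNAs are cut out so that the messengers and ribosomal RNAs between them are released. The messengers encode membrane subunits of the respiratory chain, which pumps protons while passing electrons to oxygen, and of the ATP synthase, which uses the proton gradient. Most subunits of these complexes are encoded in the nucleus. On the mitochondrial chromosome of GRCm38 (chrM), the plus strand carries mt-Nd1 (2751 to 3707), mt-Nd2 (3914 to 4951), mt-Co1 (5328 to 6872), mt-Co2 (7013 to 7696), mt-Atp6 (7927 to 8607), mt-Co3 (8607 to 9390), mt-Nd4 (10167 to 11544), mt-Nd5 (11742 to 13565) and mt-Cytb (14145 to 15288), each annotated as 1 exon without introns. Among the listed genes mt-Nd6 alone (13552 to 14070) lies on the minus strand, and it overlaps mt-Nd5 by 14 bases.

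Pieces of the mitochondrial genome have also been copied into the nuclear chromosomes, and reads from such stretches cannot be placed with certainty. A run of annotated pseudogenes on the minus strand of chromosome 1 (GRCm38, between positions 24611535 and 24616197) carries copies of several listed genes. Gm28661 (681 bases) was identical to mt-Co2, Gm10925 (678 bases) to mt-Atp6, Gm28437 (783 bases) to mt-Co3, and Gm28439 (876 bases) to a part of mt-Nd4. Gm29216 (492 bases) matched part of mt-Co1 with 6 differences, and Gm28438 (345 bases) matched mt-Nd3, a complex I gene outside the list, with 1 difference. The first 60 bases of 3 copies are shown beside the mitochondrial sequence, since the counts of the copies turn on how alike they are. The sequences are from the GENCODE M21 transcripts on GRCm38, read 5′ to 3′ along each transcript, and capitals mark the bases that differ within a pair.
mt-Co2 (chrM:7013-7072, plus strand): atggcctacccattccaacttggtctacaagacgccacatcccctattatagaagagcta
Gm28661 (chr1:24615506-24615565, minus strand): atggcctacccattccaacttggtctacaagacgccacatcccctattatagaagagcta
mt-Co1 (chrM:6381-6440, plus strand): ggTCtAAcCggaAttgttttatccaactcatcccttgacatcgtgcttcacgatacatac
Gm29216 (chr1:24616138-24616197, minus strand): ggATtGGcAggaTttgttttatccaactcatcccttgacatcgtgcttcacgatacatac
mt-Nd3 (chrM:9459-9518, plus strand): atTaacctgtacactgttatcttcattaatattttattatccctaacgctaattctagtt
Gm28438 (chr1:24613060-24613119, minus strand): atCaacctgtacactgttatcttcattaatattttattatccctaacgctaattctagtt
With positions counted from 1 at the start of the mitochondrial transcript, and the mitochondrial base first, the differences of Gm29216 were T1056A, C1057T, A1059G, A1060G, C1062A and A1066T, and that of Gm28438 was T3C. The 6 differences of Gm29216 all lie within the stretch shown, and the rest of this copy equals mt-Co1.

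The listed genes therefore differed in how well their reads can be placed. Of all windows of 100 bases along each gene, 99.5% of those of mt-Co2, 99.5% of mt-Atp6, 99.9% of mt-Co3, 60.8% of mt-Nd4, 30.8% of mt-Co1 and 3.2% of mt-Nd2 were also found without a mismatch in an annotated nuclear transcript. For mt-Nd1, mt-Nd5, mt-Nd6 and mt-Cytb no such window was found. The search covered annotated transcripts and not the whole nuclear genome.

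In the deposited counts, nearly all reads of the identical pairs stood under the nuclear name. In batch A young libraries mt-Co2, which encodes the subunit that receives electrons from cytochrome c, had 60, 35, 28 and 31 counts, and its copy Gm28661 held 99.8% to 99.9% of the counts of the pair. For mt-Atp6, a proton channel subunit of ATP synthase, Gm10925 held 99.87% of the pair in batch B old replicate 1 and a larger share in the other 10 libraries. The counts of mt-Atp6 were 5, 4, 9 and 4 in batch A young, 8 and 19 in batch B young, 78 and 16 in batch B old and 2, 5 and 2 in batch C old. The level of mt-Atp6 therefore lay near the detection limit in batches A and C, and the values of mt-Co2 and mt-Atp6 are uncertain throughout.

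For mt-Co1, which encodes the catalytic subunit of complex IV, the division was stable. Gm29216 held 38.4% to 39.9% of the counts of the pair in batch A young, 38.9% and 37.6% in batch B young, 34.7% and 38.5% in batch B old and 41.8% to 42.0% in batch C old. For mt-Nd3 it was not stable, since Gm28438 held 12.1% to 12.7% in batch A young, 17.2% and 42.6% in batch B young, 55.5% and 37.8% in batch B old and 20.9% to 23.7% in batch C old. The highest share was that of batch B old replicate 1.

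**Figure D1:**
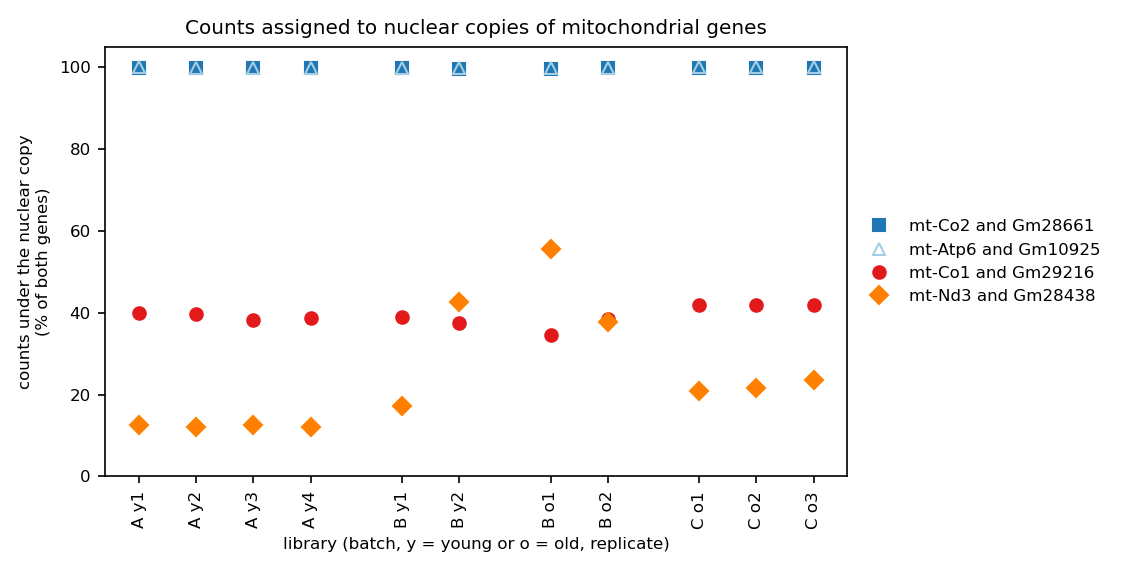
Share of the counts of each pair (mitochondrial gene and nuclear copy) that stood under the nuclear copy, in %, for each library on the x axis (batch, y for young or o for old, replicate). Squares and open triangles, for mt-Co2 and mt-Atp6, lie near 100 in every library, circles for mt-Co1 lie between 34.7 and 42.0, and diamonds for mt-Nd3 lie between 12.1 and 55.5, with the highest point in batch B old replicate 1.

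When the counts of a copy were added to its mitochondrial gene, the complex IV and V messengers were the most abundant of the listed genes other than mt-Nd4. The place of mt-Nd4 is not known, since it had no row and its copy covers only a part of it. Per kilobase of transcript, mt-Co3, counted through its copy, reached 3533 ± 252 CPM in the batch A libraries (SD, n = 4), mt-Atp6 at 3073 ± 264, mt-Co2 at 2846 ± 270 and mt-Co1 at 2771 ± 207, and neighbours in this order overlapped in range. In batch C old the order was mt-Atp6 at 4157 ± 185, mt-Co1 at 3376 ± 85.3, mt-Co2 at 2920 ± 180 and mt-Co3 at 2550 ± 126 (SD, n = 3), with no overlap between neighbours. Counts for mt-Nd4 came from Gm28439 alone and were low, at a mean of 4.4 CPM per kilobase of mt-Nd4 over the 4 libraries of batch A (SD 0.41). Per kilobase of the shorter copy the mean was 6.92 CPM. By contrast mt-Nd4l, which shares a messenger with mt-Nd4 and whose identical copy Gm10222 had no row, was at 3922 to 4860 CPM per kilobase (1165 to 1443 CPM) in the same libraries.

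By their own rows, 6 genes could be ranked per kilobase without the copies. In batch A young, mt-Co1 stood at 1686 ± 116 CPM per kilobase (SD, n = 4), followed by mt-Cytb at 1224 ± 110 and mt-Nd1 at 941 ± 104, of which the last 2 overlapped. Levels of mt-Nd5 (479 ± 29.5), mt-Nd2 (466 ± 40.5) and mt-Nd6 (417 ± 32.6) followed, with ranges that overlapped between neighbours. The same 3 genes led in each of the other groups, whereas mt-Nd2 stood above mt-Nd5 on average in batches B and C. In batch C old the order mt-Co1, mt-Cytb, mt-Nd1, mt-Nd2, mt-Nd5 and mt-Nd6 held without overlap between neighbours except for mt-Nd5 and mt-Nd6. In both groups of batch B most neighbours overlapped.

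The share of the library taken by the 8 listed genes ranged over more than 4 times between libraries. It was 0.619%, 0.581%, 0.525% and 0.62% in batch A young, 0.675% and 1.19% in batch B young, 2.33% and 0.874% in batch B old, and 1.06%, 1.03% and 0.988% in batch C old. The half-width of the 95% Wilson interval, which covers counting error only, was at most 0.0077 percentage points. All genes of the mitochondrial genome with a row made up 0.711% to 0.846% in batch A young, 0.943% and 1.85% in batch B young, 3.74% and 1.33% in batch B old and 1.28% to 1.37% in batch C old. With the nuclear copies the shares were 1.4% to 1.67%, 1.75% and 2.99%, 5.45% and 2.31%, and 2.27% to 2.46%. Batch B old replicate 1 thus held the highest and batch B young replicate 1 the lowest share of its batch on each of these counts, and the old and young libraries of batch B overlapped. In bulk RNA a smaller number of cells of a type and less RNA per cell cannot be told apart.

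Levels of single genes in CPM were also highest in batch B old replicate 1, while the order of the other libraries differed between genes. The complex I core subunit gene mt-Nd1 was at 1031, 909, 796 and 864 CPM in batch A young, 1037 and 1707 in batch B young, 3286 and 1224 in batch B old and 1327, 1368 and 1240 in batch C old. For mt-Nd2, which encodes a proton-pumping subunit of complex I, the values were 524, 480.1, 427 and 504 CPM in batch A young, 634 and 1536 in batch B young, 3404 and 982 in batch B old and 1053, 1068 and 945 in batch C old. Batch B old replicate 1 was the highest library for both genes, and batch B young replicate 2 the second.

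The gene mt-Nd5, for another pump subunit of complex I, was at 922, 875, 798 and 900.4 CPM in batch A young, 1043 and 2494 in batch B young, 5766 and 1635 in batch B old and 1383, 1303 and 1365 in batch C old. The minus-strand gene mt-Nd6, for a complex I membrane subunit, was at 234, 218, 193 and 219 CPM in batch A young, 258 and 599.6 in batch B young, 1363 and 389 in batch B old and 404, 313 and 364 in batch C old. Both moved together although they are read from opposite strands, and the strand setting of the counting was not given in the sources used here, so that reads from either strand of this region cannot be told apart.

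For complex III, mt-Cytb was at 1530, 1396, 1231 and 1442 CPM in batch A young, 1252 and 2036 in batch B young, 3939 and 1493 in batch B old and 1847, 1850 and 1721 in batch C old. For complex IV, mt-Co1 by its own row was at 2727, 2547, 2376 and 2767 CPM in batch A young, 2898 and 3617 in batch B young, 5369 and 2838 in batch B old and 3094, 3050.0 and 2941 in batch C old. These were the genes with the narrowest spread, and the highest library stood at 2.06 times the batch A mean for mt-Co1 and 2.81 times for mt-Cytb, against 6.6 times for mt-Nd5 and 7.04 times for mt-Nd2. The gene mt-Co2 was at 3.33, 2.96, 2.31 and 2.52 CPM in batch A young, 3.13 and 6.74 in batch B young, 12.4 and 4.08 in batch B old and 3.94, 4.13 and 3.63 in batch C old by its own row.

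**Figure D2:**
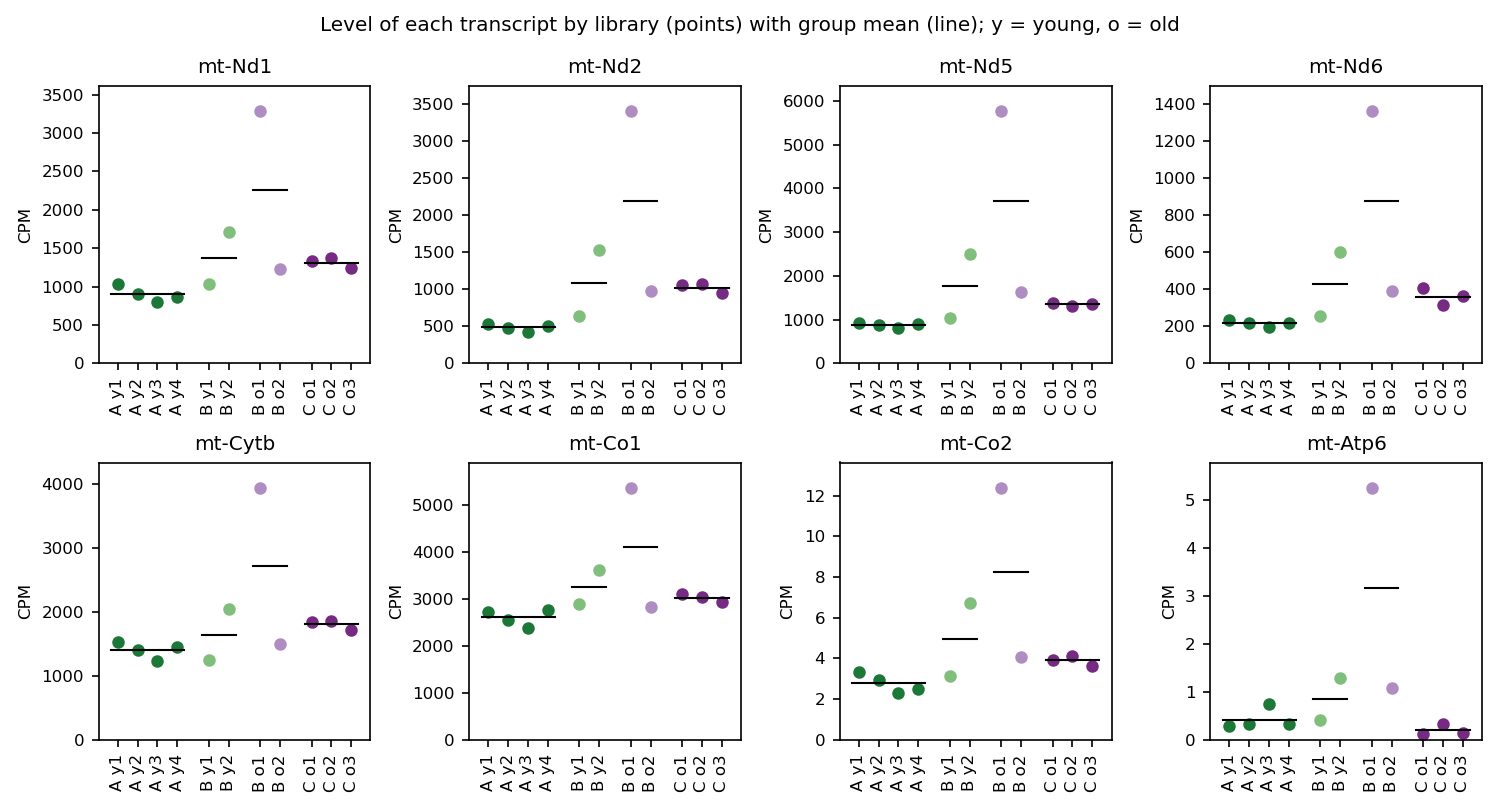
CPM of each of the 8 genes with a row, on a linear axis from 0 that differs between panels, with 1 point per library and a line at the group mean. Batch B old replicate 1 is the highest point in all 8 panels, libraries of batches A and C lie close together within each group, and both ages of batch B overlap.

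The make-up of the group changed with its level. In batch A young, mt-Co1 gave 39.1% to 41.3% of the summed count of the 8 genes, mt-Cytb 21.1% to 21.9%, mt-Nd1 12.9% to 14.8%, mt-Nd5 13.2% to 13.7%, mt-Nd2 7.33% to 7.52% and mt-Nd6 3.27% to 3.38%. In batch B old replicate 1 the share of mt-Co1 was 23.2% and that of mt-Cytb 17.02%, whereas mt-Nd5 gave 24.9%, mt-Nd2 14.7% and mt-Nd6 5.89%. Batch B young replicate 2 and batch B old replicate 2 lay between, with 30.2% and 33.1% for mt-Co1 and 20.8% and 19.1% for mt-Nd5. Batch B young replicate 1 was close to batch A for mt-Co1, at 40.7%, and for mt-Nd5, at 14.6%. The share of mt-Nd1 stayed between 12.9% and 15.3% in all 11 libraries. By the genes' own rows, batch C old libraries, with 34.0% to 34.3% for mt-Co1 and 11.01% to 11.9% for mt-Nd2, did not overlap batch A young for these genes. With the nuclear copies added, the groups overlapped for mt-Co1, at 28.06% to 29.13% in batch A young and 28.88% to 29.55% in batch C old. For mt-Nd2 they still did not, at 3.18% to 3.253% and 5.506% to 5.905%. The share of mt-Co1 in batch B old replicate 1 was 20.88% with the copies. These shares are read within a library and do not depend on its scaling, but they sum to a fixed total, so that a rise of 1 gene lowers the others.

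**Figure D3:**
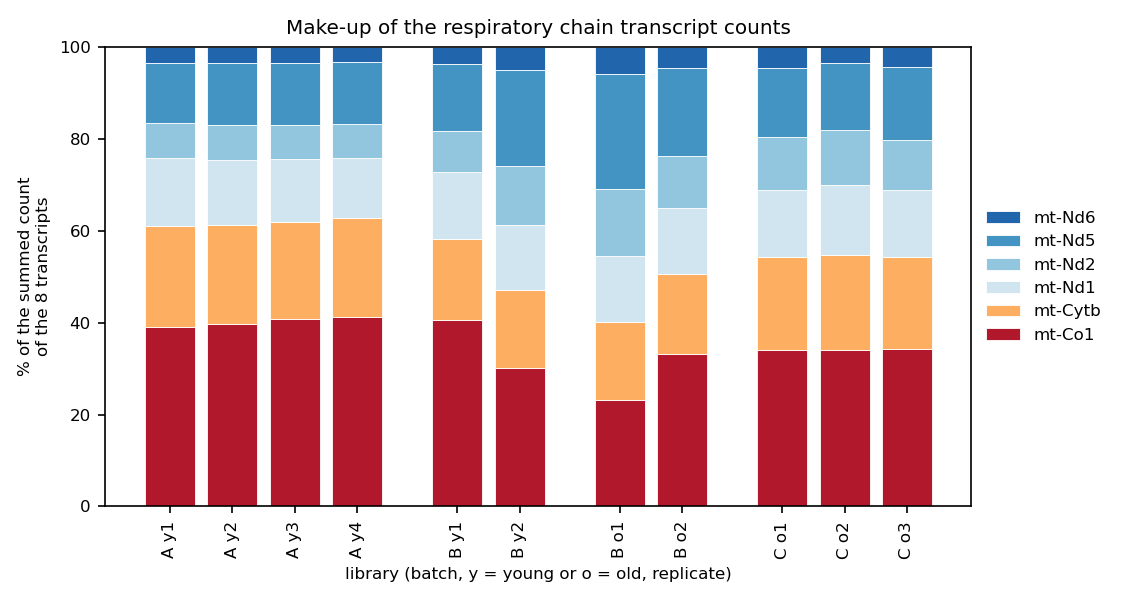
Stacked bars give the share of each gene in the summed count of the 8 genes with a row, in %, for each library (batch, y for young or o for old, replicate). mt-Co2 and mt-Atp6 are too small to be drawn. The mt-Co1 bar shrinks from 39.1 or more in batch A to 23.2 in batch B old replicate 1, while the mt-Nd5 and mt-Nd2 bars widen.

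Age was compared within batch B, the only batch with both ages. Of the 8 genes, 0 passed the threshold of 0.05 after Benjamini-Hochberg adjustment in edgeR's quasi-likelihood test, compared with 2.23% of the 16132 genes tested. At an unadjusted p under 0.05 the number was 6 with edgeR (16.1% of all genes tested), 4 with limma-trend (15.8%) and 1 with DESeq2 (13.8%), and with adjustment it was 0 with each of them. With no filter on low counts, 6 of the 8 genes passed with edgeR, all higher in old MSCs, against 1.8% of 28222 genes called higher under the same setting. Log2 fold changes, old over young, were 0.72 for mt-Nd1 (SE 0.31), 1.02 for mt-Nd2 (SE 0.41), 1.07 for mt-Nd5 (SE 0.41), 1.03 for mt-Nd6 (SE 0.41), 0.72 for mt-Cytb (SE 0.30), 0.33 for mt-Co1 (SE 0.21) and 0.76 for mt-Co2 (SE 0.40). Their edgeR adjusted p-values were between 0.202 for mt-Nd5 and 0.463 for mt-Co1, and that of mt-Atp6 was 0.137. The median of the 8 genes was 0.89, against 0.0044 for all genes tested.

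For each of the 8 genes both ages overlapped in range, whereas 19.2% of all genes tested were higher in both old than in both young libraries. In 7 of the 8 genes the order within the batch was old replicate 1, young replicate 2, old replicate 2 and young replicate 1, and in mt-Co1 the last 2 changed places. The estimate rested on 1 library. Without batch B old replicate 1 the median was −0.14, with 7 of 8 genes lower in old MSCs. The median was 1.58 without batch B young replicate 2 and 1.5 without batch B old replicate 2, with all 8 genes higher in old MSCs in both fits. Each of these fits leaves 1 library in a group, which is then assumed to vary like the other groups. The number of genes called in these fits is therefore not given.

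With the counts of the copies added, 0 of the 10 listed genes passed for age with edgeR. The log2 fold change was 0.44 for mt-Co2 (SE 0.24), 0.45 for mt-Co3 (SE 0.19), 0.41 for mt-Atp6 (SE 0.21), 0.28 for mt-Co1 (SE 0.20) and 1.27 for mt-Nd4 (SE 0.47), of which the last came from Gm28439 alone.

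**Figure D4:**
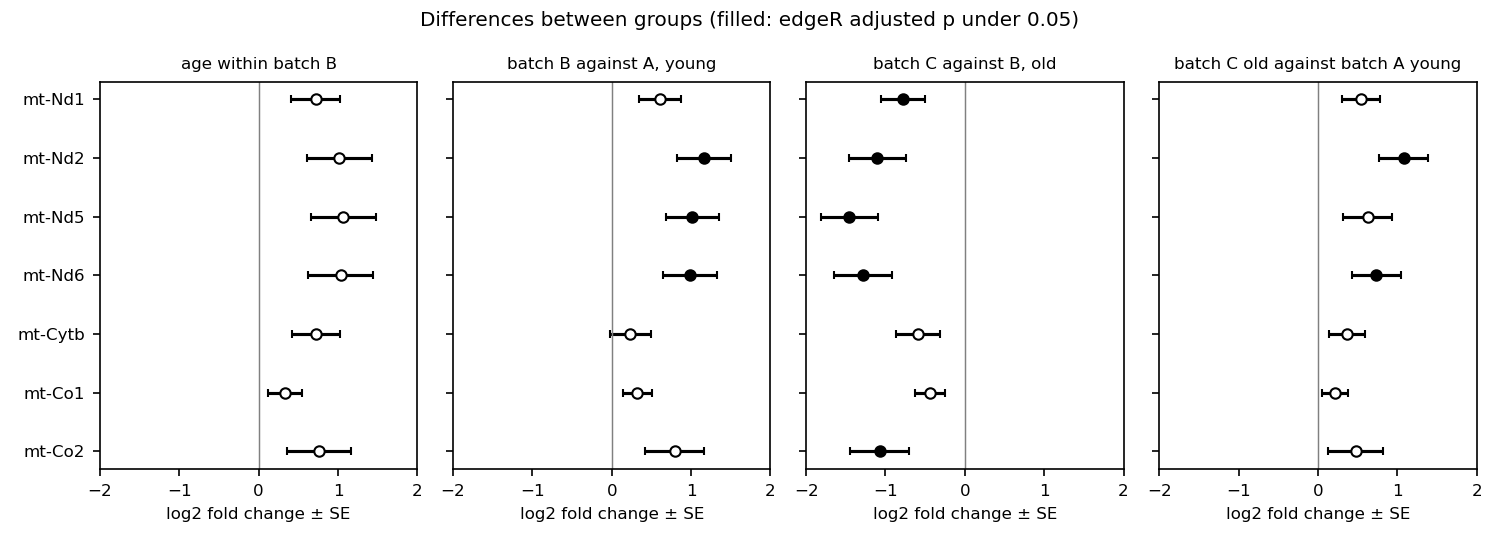
Log2 fold change (x axis, with bars for the SE) of 7 genes in the 4 comparisons. Filled points had an edgeR adjusted p under 0.05; mt-Atp6 is left out because of its low counts. No point is filled for age within batch B, 3 are filled to the right for batch B against A, 5 to the left for batch C against B and 2 to the right for batch C old against batch A young.

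Batch B was compared with batch A in young MSCs to measure the batch difference at constant age. In this comparison 3 of the 8 genes rose in batch B, while 12.8% of all genes tested were called higher. These were the complex I genes mt-Nd2 (log2 fold change 1.17, SE 0.34, edgeR adjusted p 0.0196), mt-Nd5 (1.02, SE 0.34, edgeR adjusted p 0.0377) and mt-Nd6 (0.99, SE 0.34, edgeR adjusted p 0.0432). The genes mt-Nd1 (0.61, SE 0.26), mt-Co2 (0.79, SE 0.37), mt-Co1 (0.32, SE 0.18) and mt-Cytb (0.23, SE 0.26) did not pass. Both batch B young libraries lay above all batch A libraries for mt-Nd1, mt-Nd2, mt-Nd5, mt-Nd6 and mt-Co1, that is 5 of 8 genes, against 19.3% of all genes tested. Markers of other cell types moved in this comparison too, since 6 of 6 genes of dividing cells (median −1.40) and 9 of 16 leukocyte genes (median −1.04) were called lower in batch B, against 13.1% of all genes tested, and 3 of 4 tested erythroid genes were called higher. Their part in the levels of the listed genes was not tested in this comparison, except for the fit with a leukocyte covariate described with the markers.

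These calls rested on single libraries. Without batch A young replicate 3, 0 of the 8 genes were called, with 3218 of 16071 genes called in all. The number was 1 without batch A young replicate 2 (3705 of 16089 in all) or batch A young replicate 4 (3560 of 16066). It was also 1 without batch C old replicate 1 (3719 of 15844) or batch C old replicate 3 (3692 of 15950). It was 3 without batch A young replicate 1 (4397 of 16014) and 2 without batch C old replicate 2 (3735 of 15904). Calls of fits without a batch B library are not given, since each leaves 1 library in a group. With all libraries 4171 of 16132 genes were called. The median of the 8 genes was 0.89 with all libraries, 0.18 without batch B young replicate 2 and 1.37 without batch B young replicate 1. With limma-trend or DESeq2, 1 of the 8 genes passed, while 4255 and 4202 of all genes were called. With limma-trend on values that were also corrected for transcript length and GC content, 0 of the 8 genes passed and their median was −0.066. In that fit 3407 of 16106 genes were called.

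In old MSCs, 6 of the 8 genes were called lower in batch C than in batch B, against 28.3% of all genes tested. The log2 fold change was −1.46 for mt-Nd5 (SE 0.36, edgeR adjusted p 0.00316), −1.28 for mt-Nd6 (SE 0.36, edgeR adjusted p 0.00724), −1.10 for mt-Nd2 (SE 0.36, edgeR adjusted p 0.0176), −0.78 for mt-Nd1 (SE 0.28, edgeR adjusted p 0.0263) and −1.07 for mt-Co2 (SE 0.37, edgeR adjusted p 0.0213). The sixth was mt-Atp6, with 2 to 5 counts per batch C library. The values of −0.59 for mt-Cytb (SE 0.27, edgeR adjusted p 0.0788) and −0.44 for mt-Co1 (SE 0.19, edgeR adjusted p 0.0628) did not pass. Groups did not overlap for mt-Nd5 and mt-Atp6, against 37.3% of all genes tested that were lower without overlap.

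This difference rested on batch B old replicate 1. Without it, the median of the 8 genes moved from −1.09 to −0.007, with 4 genes lower and 4 higher. Without batch B old replicate 2 the median was −1.70. Without batch C old replicate 3, 3 of the 8 genes passed, with 7800 of 15950 genes called in all, against 8902 of 16132 with all libraries. Of the 8 genes, 3 were called with limma-trend (8954 genes in all), 4 with DESeq2 (8361) and 3 with the replicate block (8195). After the length and GC correction limma-trend called 2 (8978 in all), and the median of the 8 genes was −0.30. With the leukocyte covariate 0 were called (3487 in all), with a median of −1.88 for the 8 genes. For mt-Nd4 the copy Gm28439 was at 5.29 to 6.54 CPM in batch A young, 10.4 and 27.7 in batch B young, 73.9 and 17.0 in batch B old and 8.78 to 11.3 in batch C old. With the copies added, mt-Co3 (−1.10, SE 0.17, edgeR adjusted p 4.95e-05), mt-Co2 (−0.65, SE 0.21, edgeR adjusted p 0.0184) and mt-Nd4 (−2.19, SE 0.43, edgeR adjusted p 0.000491) were called lower in batch C, and mt-Atp6, at −0.12 (SE 0.19, edgeR adjusted p 0.627), was not.

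Batch C old was also set beside batch A young, a comparison in which age and batch cannot be told apart. The called genes were mt-Nd2 (log2 fold change 1.08, SE 0.31, edgeR adjusted p 0.00679) and mt-Nd6 (0.74, SE 0.31, edgeR adjusted p 0.0493), so that 2 of 8 were called higher against 27.1% of all genes tested. The groups did not overlap, with batch C higher, for 7 of 8 genes, against 28.7% of all genes tested, and mt-Atp6 was the exception. Fold changes of the other genes were 0.63 for mt-Nd5 (SE 0.31), 0.54 for mt-Nd1 (SE 0.23), 0.48 for mt-Co2 (SE 0.34), 0.37 for mt-Cytb (SE 0.23) and 0.22 for mt-Co1 (SE 0.16). The number called was 1 when batch A young replicate 2, 3 or 4 or any library of batch C was left out, and 2 without batch A young replicate 1. These fits called between 8154 and 9246 of all genes, against 9435 with all libraries. Calls of fits without a batch B library are not given, since each leaves 1 library in a group. The batch B libraries enter this comparison only through the estimate of the spread. Scaling by total counts moved the median of all genes from −0.03 to 0.33 and gave 7 called genes, while 44.5% of all genes were called higher. A fit of the 7 libraries of the comparison alone also gave 7, against 32% of all genes. The number was 1 with limma-trend, DESeq2 or the replicate block and 0 with the leukocyte covariate, and with limma-trend after the length and GC correction 1 gene was called, which was lower in batch C old.

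With the copies added, mt-Atp6 was called higher in batch C old than in batch A young (0.44, SE 0.16, edgeR adjusted p 0.0278) and mt-Co3 lower (−0.47, SE 0.14, edgeR adjusted p 0.0103). In CPM, Gm28437, the copy that stands for mt-Co3, was at 2948, 2647, 2557 and 2928 in batch A young, 2560 and 3724 in batch B young, 5108 and 3473 in batch B old and 2057, 2056 and 1884 in batch C old, so that batch C old lay below all other groups. The copy of mt-Atp6, Gm10925, was at 2296, 2110.0, 1857 and 2106 CPM in batch A young and at 2925, 2879 and 2687 in batch C old. These genes are neighbours on the mitochondrial genome and overlap by 1 base.

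Other genes of the mitochondrial genome differed among themselves in how far they moved. In batch B old replicate 1 the level over the batch A mean was 13.0 for mt-Rnr1, 9.94 for mt-Rnr2 and 4.25 for mt-Nd4l, but 1.97 for mt-Atp8, the gene of a small ATP synthase subunit. The ribosomal RNA genes mt-Rnr1 and mt-Rnr2 encode the RNA of the small and large subunit of the mitochondrial ribosome. For mt-Rnr1 the values were 203, 205, 179 and 219 CPM in batch A young, 332 and 1165 in batch B young, 2625 and 724 in batch B old and 128, 117 and 123 in batch C old. For mt-Rnr2 they were 543, 500.4, 443 and 521 CPM in batch A young, 786 and 2353 in batch B young, 4989 and 1559 in batch B old and 506, 510.4 and 574 in batch C old. Both ribosomal RNAs made up 7.86% to 8.11% of the mitochondrial counts in batch A young, 11.2% and 18.8% in batch B young, 20.5% and 17.5% in batch B old and 5.35% to 6.25% in batch C old. Batch B old replicate 1 and batch B young replicate 2, the libraries with the highest listed genes, also held the highest shares of ribosomal RNA in the mitochondrial counts. This did not hold beyond them. In batch C old the listed genes took 0.988% to 1.06% of the library, above the 0.874% of batch B old replicate 2, but the ribosomal RNA share was the lowest of the groups.

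The complex I gene mt-Nd3 showed another pattern. It was at 324, 272, 258 and 326 CPM in batch A young, 251 and 398 in batch B young, 589 and 301 in batch B old and 45.4, 48.7 and 38.1 in batch C old. In batch C it fell by 3.34 on the log2 scale against batch B in old MSCs (SE 0.24, edgeR adjusted p 3.81e-08) and by 2.74 against batch A young (SE 0.21, edgeR adjusted p 5.7e-08). The transfer RNA gene mt-Tp was at 5.04 to 7.31 CPM in batch A young, 16.3 and 86.3 in batch B young, 231 and 51.6 in batch B old and 0.363 to 1.05 in batch C old. The 6 other mitochondrial genes that passed the filter were mt-Rnr1, mt-Rnr2, mt-Nd3, mt-Nd4l, mt-Atp8 and mt-Tp. All 6 were called lower in batch C than in batch B, against 28.3% of all genes tested. Of them 3 (mt-Rnr1, mt-Rnr2 and mt-Tp) were called higher in batch B than in batch A, against 12.8%. For age within batch B 0 of the 6 were called with edgeR, against 2.23%, with log2 fold changes from 0.46 to 1.48.

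**Figure D5:**
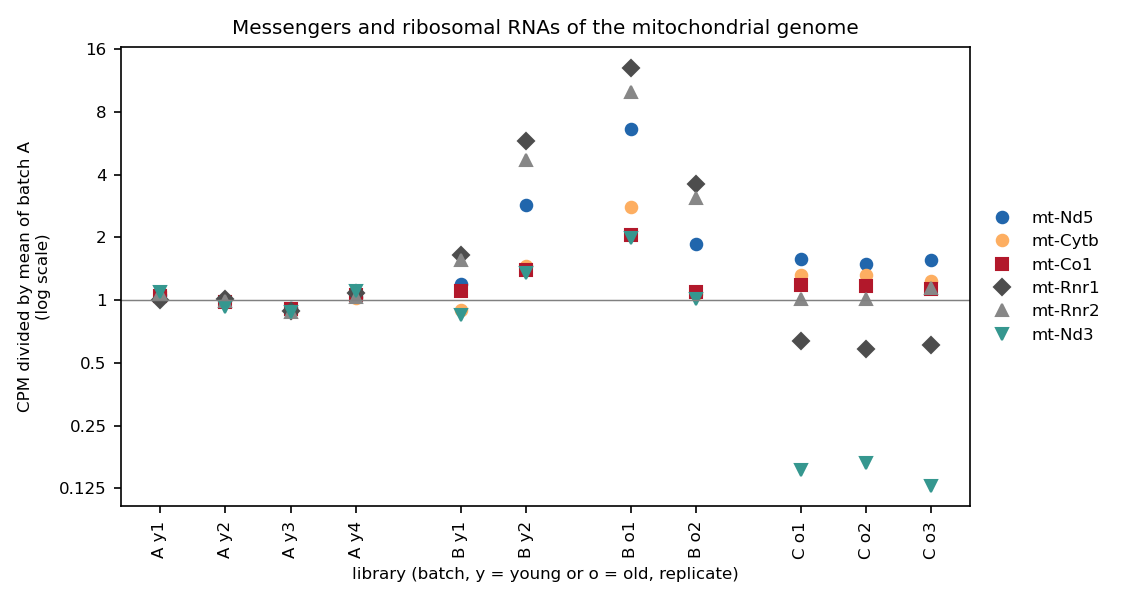
CPM of 3 listed genes (mt-Nd5, mt-Cytb and mt-Co1), both ribosomal RNA genes and mt-Nd3 divided by the mean of the 4 batch A libraries, on a log axis, for each library. In batch B old replicate 1 the ratio is 13.03 for mt-Rnr1, 6.6 for mt-Nd5 and 2.06 for mt-Co1, and in batch C old libraries mt-Nd3 lies between 0.129 and 0.165 while the listed genes lie above 1.

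Nuclear genes that serve the mitochondrial genome were examined by lists of their roles. For age within batch B, 0 of 10 genes of mitochondrial transcription, 0 of 17 tested genes of RNA processing and stability, 0 of 12 genes of mitochondrial DNA maintenance, 0 of 6 tested biogenesis regulators and 0 of 11 genes of organelle content passed, with median log2 fold changes of 0.10, 0.11, −0.03, −0.0059 and 0.12. The 80 tested nuclear-encoded subunits of the respiratory chain and ATP synthase had a median of 0.15. Of these, 2 were called lower, a share near the 1.54% of all genes tested. They were the complex IV isoform gene Cox4i2 (−0.92, SE 0.20, edgeR adjusted p 0.021) and Ndufa4l2 (−0.59, SE 0.14, edgeR adjusted p 0.0396). The cytosolic ribosomal protein genes, another group of short abundant messengers, had a median of 0.19 with 0 of 80 called.

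Between batches C and B in old MSCs 26.9% of all genes tested were called higher and 28.3% lower, with a median of 0.02. Of the 80 nuclear-encoded subunits 74 were called lower in batch C and 2 higher (Cox4i2 and Cox6b2), with a median of −1.27, and all 80 cytosolic ribosomal protein genes were called lower, with a median of −1.61. The fall was −2.93 for Ndufa1, −2.56 for Ndufa3 and −2.37 for Cox5a, and −5.04 for Rpl23a, −4.18 for Rps29 and −3.33 for Rps28. All 11 genes of organelle content were called lower, with the import genes Timm23 at −1.64 and Tomm20 at −1.24 and the outer membrane channel gene Vdac2 at −1.02. The lists of transcription, DNA maintenance and biogenesis had shares of lower calls close to that of all genes. For transcription, 4 of 10 genes were called higher, among them Mterf4 (1.03), Mterf2 (1.31) and Mterf3 (0.49), and 3 lower, which were Tfb2m (−0.61), Tefm (−1.01) and Tfam (−0.49), the gene of the factor that packages mitochondrial DNA.

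For RNA processing, 9 of 17 genes were called lower and 0 higher, among them Rexo2 (−0.94), Hsd17b10 (−0.93) and Fastkd2 (−0.76). For DNA maintenance, 1 of 12 was higher, Polg (0.52), which encodes the mitochondrial DNA polymerase, and 3 were lower, Slc25a33 (−1.72), Tk2 (−0.61) and Rrm2b (−0.40). Among 6 biogenesis regulators, Gabpa (0.36) was higher and Esrra (−0.65) and Gabpb1 (−0.56) were lower.

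The genes most like the group in pattern were sought over the 11 libraries by Pearson r between their log2 CPM and the mean log2 CPM of the 8 genes. They were Taf13 (r = 0.92), Cacybp (r = 0.91), Casq2 (r = 0.90), Slc5a8 (r = 0.89) and Hbb-bt (r = 0.89). The libraries share batch and depth, and the values are descriptions. Taf13, for a general transcription factor subunit, ranged from 17.4 to 31.7 CPM and Cacybp from 36.1 to 73.9 CPM, each with its highest value in batch B old replicate 1, whereas Casq2, Slc5a8 and Hbb-bt stayed at or below 1.15 CPM. Without batch B old replicate 1 and batch B young replicate 2, the libraries farthest from the median, r was 0.78 for Taf13, 0.95 for Cacybp and 0.95 for Casq2, but 0.79 for Slc5a8 and 0.55 for Hbb-bt. Within the group, r of each gene with the mean of the others was between 0.93 for mt-Cytb and 0.99 for mt-Nd5, except for mt-Atp6 at 0.72.

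Other cell types moved with the comparisons as well. All 11 mesenchymal markers were detected, with a summed level of 3785 to 6136 CPM, and Ly6a, which encodes Sca-1, was at 270.0 to 778 CPM. All 16 markers of leukocytes and macrophages were detected in every library. Their summed level was 827 to 1861 CPM in batch A young, 953 and 463 in batch B young, 1371 and 961 in batch B old and 158 to 189 in batch C old, so that batch C was low throughout and batch B old replicate 1 held the highest value of its batch. For age within batch B, 16 of 16 leukocyte genes had a fold change above 0 and 0 were called with edgeR (median 0.70), and between batches C and B in old MSCs all 16 were called lower (median −2.83). Haemoglobin genes, which mark red blood cells, were at 0 in batches A and C, and the summed level of the erythroid markers within batch B was 0.782 and 2.93 CPM for the young libraries against 3.37 and 2.0 CPM for the old, in the same order of libraries within batch B as the listed genes.

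Endothelial markers summed to 1.71 to 9.77 CPM, osteoblast markers to 43.6 to 239 CPM and muscle markers to 26.2 to 64.7 CPM, of which Acta1 gave most. Genes of dividing cells summed to 188 to 391 CPM in batch A young, 104 and 121 in batch B young, 227 and 154 in batch B old and 389 to 448 in batch C old. In batch C old against batch A young the median of the osteoblast markers was 1.80. Between batches C and B in old MSCs, with 26.9% of all genes called higher and 28.3% lower, 6 of 11 mesenchymal markers were called higher and 2 lower, 3 of 4 osteoblast markers and 2 of 6 genes of dividing cells higher, 1 of 4 tested erythroid genes higher and 3 lower, and 0 of 2 tested endothelial and 0 of 2 tested muscle genes in either direction. Of the marker genes, Pdgfra (−0.86) and Nt5e (−1.34) were called lower and Des (2.15) higher with age in batch B. Their part, and that of leukocyte and erythroid RNA, in the levels of the listed genes was not tested, except by adding the leukocyte level to the fit. The median log2 fold change of the 8 genes was then 1.18 for age (0.89 without it), 0.57 for batch B against A (0.89), −1.88 for batch C against B (−1.09) and 0.019 for batch C old against batch A young (0.51). In that fit 0 of the 8 genes passed in each comparison, as was the case for age without it. Calls over all 16132 genes changed too. In the same order of comparisons they were 667, 866, 3487 and 971 with the covariate, against 360, 4171, 8902 and 9435 without it.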

How the data were processed

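Polyadenylated RNA of MSC cultures was sequenced, and the authors deposited a table of read counts per gene for 11 libraries, which are raw whole-number counts without normalization. The submitters' processing notes name the builds GRCm38 and mm10. The aligner, the counting program, its strand setting and its treatment of reads with several matches were not given in the sources used here. Gene identifiers were matched to GENCODE M21, which named 28143 of 28222 genes and left 79 without a name. Groups followed batch and age in the labels. No 2 libraries agreed within sampling noise, since the lowest chi-square per gene over 55 pairs of libraries was 3.24.

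Genes were kept with filterByExpr at a minimum count of 5, scaled by TMM and fitted with edgeR 4.0.16 in R 4.3.3 (quasi-likelihood test, 1 model with 4 groups over 11 libraries). P-values were two-sided and adjusted by the Benjamini-Hochberg method over 16132 genes, with a threshold of 0.05, and a gene was called past it. The SE was the fold change divided by the square root of the F statistic. Totals scaled by TMM gave the CPM values, to which a prior count of 2 was added before the log2 scale was used. The fit was tested on simulated data, in which it recovered 64.0% of 197 changed genes among 15752 for age within batch B. Of the calls in the simulated data, 7.35% were false for age within batch B and 8.44% for batch B against A. The false share was 6.34% for batch C against B and 2.74% for batch C old against batch A young. limma 3.58.1 and DESeq2 1.42.0, RLE and total-count scaling, scaling without mitochondrial genes, minimum counts of 10 or none, a length and GC correction, a leukocyte covariate, a replicate block, no batch term, fits of the compared libraries alone and leaving out each library were alternatives. Adding the counts of nuclear copies was an alternative chosen after seeing the data. A copy was an annotated nuclear transcript with over 50% of its windows of 50 bases found in the mitochondrial gene. No nuclear genome sequence was searched, so that copies without annotation were not analysed here.

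Named genes were all listed genes, the other mitochondrial genes that passed the filter, up to 3 genes per list and direction with the smallest p among those called for age and for batch C against B, the 5 genes most like the group, and the nuclear copies. The lists were mitochondrial transcription, RNA processing, DNA maintenance, biogenesis regulators, organelle content, nuclear-encoded subunits, cytosolic ribosome and the cell type markers. The genes and lists were chosen with earlier results of these data known.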

Additional observations from a re-analysis of the deposited data

Results flagged for a closer look

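In 11 sets of values with 4 libraries each, 1 library stood apart from the others by Dixon's criterion, which chance meets in about 1 in 20 such groups. It was batch A young replicate 3 for mt-Atp6, at 0.743 CPM from 9 counts, against 0.277 to 0.338 CPM from 4 or 5 counts in the other libraries of its group. The gap made up 0.87 of the range of the group, above the 95% critical value. Nearly all reads that match mt-Atp6 were counted under Gm10925, so that the value rests on few counts.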

How the results depend on the processing

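Counts below are of the 8 genes called, as counted and with the reported fit 0 for age within batch B, 3 for batch B against A in young MSCs, 6 for batch C against B in old MSCs and 2 for batch C old against batch A young. With no filter on low counts, 6, 6, 8 and 5 were called in this order, and 1094, 4396, 8679 and 9331 of all 28222 genes. limma-trend called 1, 3 and 1 and DESeq2 1, 4 and 1 in the last 3 comparisons. Of all 16132 genes, limma-trend called 4255, 8954 and 9553 there and DESeq2 4202, 8361 and 8873. With the leukocyte covariate 0 were called in each comparison, and the median log2 fold change for batch C against B was −1.88. That fit called 667, 866, 3487 and 971 of all 16132 genes, against 360, 4171, 8902 and 9435 in the reported fit. Total-count scaling and a fit of the compared libraries alone each called 7 for batch C old against batch A young. With the nuclear copies added, 4 of the 10 listed genes were called there, 3 higher and 1 lower. That fit called 9436 of 16128 genes in all. The length and GC correction with limma-trend called 0 for batch B against A (median −0.066), 2 for batch C against B (median −0.30) and 1, lower, for batch C old against batch A young.

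Direction turned under this correction for batch B against A in mt-Nd1 (−0.10), mt-Nd6 (−0.21), mt-Cytb (−0.29), mt-Co1 (−0.032) and mt-Atp6 (−0.15), and for batch C old against batch A young in mt-Cytb (−0.073) and mt-Co1 (−0.21). In the latter comparison the leukocyte covariate turned mt-Nd5 (−0.11), mt-Nd6 (−0.11), mt-Cytb (−0.0099), mt-Co2 (−0.35) and mt-Atp6 (0.36), and the nuclear copies added turned mt-Atp6 (0.44). The cause was not tested for any of these.

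With 1 library left out, the median log2 fold change of the 8 genes ranged from −0.14 to 1.58 for age and from 0.18 to 1.37 for batch B against A. It ranged from −1.70 to −0.0070 for batch C against B and from 0.45 to 0.61 for batch C old against batch A young. For age the log2 fold change ranged from −0.16 to 1.26 for mt-Nd1, −0.14 to 1.79 for mt-Nd2, −0.11 to 1.82 for mt-Nd5, −0.14 to 1.76 for mt-Nd6, −0.13 to 1.26 for mt-Cytb, −0.19 to 0.72 for mt-Co1 and −0.25 to 1.39 for mt-Co2, with each lowest value without batch B old replicate 1. For batch B against A, mt-Cytb ranged from −0.16 to 0.54. For batch C against B the range was −1.33 to 0.095 for mt-Nd1, −1.74 to 0.053 for mt-Nd2, −1.13 to 0.27 for mt-Cytb and −0.83 to 0.089 for mt-Co1, with each highest value without batch B old replicate 1.

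The replicate block called 0, 0, 3 and 1 of the 8 genes and 262, 2566, 8195 and 8556 of all genes, against 360, 4171, 8902 and 9435 without it. Deviations of libraries with the same number correlated at −0.11 to 0.135. In groups this small these values cannot show whether libraries with the same number were paired. For age, DESeq2 called 643 of 16132 genes, a fit with no filter 1094 of 28222 and a fit without a batch term 2641 of 14689. Under total-count scaling, higher genes made up 44.8%, 65.4%, 63.1% and 73.5% of calls in the 4 comparisons, against 31.1%, 49.4%, 48.7% and 46.3% under TMM. Groups of 2 libraries, the low counts of mt-Co2 and mt-Atp6 and reads shared with nuclear copies limit what can be read from these values.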
